A study of Mus musculus with 12 samples.

Results

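This report covers 9 genes of interferon gamma receptor signaling in tumor-associated macrophages (TAMs), namely the ligand Ifng, the receptor chains Ifngr1 and Ifngr2, the receptor kinases Jak1 and Jak2, the target transcription factors Irf1 and Irf8, the feedback inhibitor Socs1 and the serpin gene Serpina3g. They were chosen by symbol from the 55401 genes of the count tables, each has 1 row, and all 9 passed the filter on low counts in both comparisons. TAMs were sorted as CD45+CD11b+Ly6C-Ly6G-F4/80+ cells (500000 per sample are stated for the WT and AMPK-KO mice) from subcutaneous B16 melanoma, a pigmented mouse tumor line grown in C57BL/6 mice, and their RNA was sequenced in bulk. The methods give this Ly6C- gate, whereas supplementary legends write Ly6C+ for TAMs. A first table held 3 libraries from AMPKfl/fl mice (WT) and 3 from AMPKfl/flLyz2cre/cre mice (AMPK-KO). All of these mice carried the floxed AMPKα1 allele, were 5 weeks old and bore tumors of day 15 according to the methods. A second table held 3 early-stage libraries (day 8) and 3 late-stage libraries (day 15), labelled as WT in genotype, and treatment was given as none for all 12 libraries. Cre driven by Lyz2 acts across myeloid cells, not in TAMs alone. The tables answer whether loss of AMPK, a sensor of cellular energy, and whether tumor stage go with a change in these genes.

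Interferon gamma is a cytokine made mainly by T cells and natural killer (NK) cells. It binds a receptor built from IFNGR1 and IFNGR2 chains, which carry the kinases JAK1 and JAK2. The signal acts on promoters through gamma-activated sites (GAS) and switches on Irf1, antigen presentation genes, guanylate-binding proteins and, as a brake, Socs1, which blocks the kinases. Macrophages are a classical target, and respond with raised MHC class II, nitric oxide synthesis and killing of intracellular microbes.

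The libraries held 71019494 to 84470374 counts on genes. Prkaa1, which encodes the AMPKα1 catalytic subunit, was at 68.8, 62.8 and 63.3 CPM, counts scaled to a common library size, in the WT libraries and at 47.0, 40.9 and 40.8 CPM in the AMPK-KO libraries, so that Prkaa1 fell by 0.60 ± 0.07 (SE) on the log2 scale (adjusted p = 2.3e-04). A count over the whole gene includes transcripts that lack only the deleted exon. Lyz2, the gene into which cre was placed, was at 9.16 to 13.5 CPM in the WT as well as in the AMPK-KO libraries, against 1092 to 1129 CPM in the late-stage libraries, although the WT label names no cre allele. The genotype labels of AMPK-KO replicates 2 and 3 read Lyz3cre/cre and Lyz4cre/cre, whereas their titles read Lyz2cre/cre. The 4 Y-linked genes examined summed to 9229 to 12183 counts in the WT and AMPK-KO libraries and to 3435 to 4035 in the early-stage libraries, but to 0 to 4 in the late-stage libraries, while the methods name female mice. Scaled to CPM, their sums were 128 to 139 in WT, 141 to 153 in AMPK-KO and only 41.5 to 48.8 in the early-stage libraries. Whether the early-stage libraries mixed both sexes was not tested. Sex and stage therefore cannot be told apart in the second table. The 10 macrophage markers, led by C1qb, summed to 12564.5 to 13959.6 CPM in WT and to 12727 to 13095 CPM in AMPK-KO. Their sums were 9721 to 12147 CPM early and 12747 to 12837 CPM late, without overlap, with 1 of the 10 called higher in late and none lower.

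The promoters of the genes that the results turn on are shown first, since the pathway acts through short sites upstream of its targets. The sequences are the 250 bases before the transcription start in RefSeq (GRCm38.p6), written 5′ to 3′ on the strand of the gene. Capitals mark matches to the GAS letters TTCNNNGAA, which read the same on either strand, or to the core of the interferon-stimulated response element (ISRE), taken as GAAA, 2 free bases and GAAA again, which was searched on both strands.
Irf1, promoter 1, chr11:53769764-53770013, plus strand: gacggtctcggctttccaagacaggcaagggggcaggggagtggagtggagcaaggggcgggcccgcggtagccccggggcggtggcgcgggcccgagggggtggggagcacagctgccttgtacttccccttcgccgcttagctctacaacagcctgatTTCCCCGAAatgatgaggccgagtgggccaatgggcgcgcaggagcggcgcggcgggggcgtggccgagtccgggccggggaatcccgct
Irf8, promoter 1, chr8:120736108-120736357, plus strand: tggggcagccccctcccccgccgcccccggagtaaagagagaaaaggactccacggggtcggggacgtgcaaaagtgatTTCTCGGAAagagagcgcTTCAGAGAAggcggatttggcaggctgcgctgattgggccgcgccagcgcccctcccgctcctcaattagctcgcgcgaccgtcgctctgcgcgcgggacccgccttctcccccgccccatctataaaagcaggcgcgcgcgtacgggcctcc
Socs1, chr16:10785537-10785786, minus strand: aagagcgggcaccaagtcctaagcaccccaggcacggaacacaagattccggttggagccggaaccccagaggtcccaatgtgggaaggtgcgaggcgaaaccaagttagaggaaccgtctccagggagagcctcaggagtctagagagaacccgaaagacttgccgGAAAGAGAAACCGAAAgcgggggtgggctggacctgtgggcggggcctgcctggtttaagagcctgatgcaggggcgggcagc
Serpina3g, chr12:104235897-104236146, plus strand: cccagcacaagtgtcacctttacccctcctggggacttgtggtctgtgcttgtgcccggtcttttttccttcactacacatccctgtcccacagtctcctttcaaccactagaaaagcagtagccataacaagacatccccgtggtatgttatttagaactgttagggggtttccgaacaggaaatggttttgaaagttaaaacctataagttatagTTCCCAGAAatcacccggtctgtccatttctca
Irf1 carried the GAS match TTCCCCGAA at -90 to -82 from its start. Irf8 carried a pair of matches, TTCTCGGAA at -171 to -163 and TTCAGAGAA at -153 to -145. Serpina3g carried TTCCCAGAA close to the start, at -33 to -25. Socs1 held no GAS match in this window, but a pair of ISRE core matches that overlap each other, at -83 to -74 and at -77 to -68. Ifng held TTCAGAGAA at -249 to -241. No match to either motif lay in the windows of Ifngr1, Ifngr2, Jak1 and Jak2, or in the second promoter listed for Irf1 and for Irf8. Among all 32851 promoters of the same length, 7.02% held a GAS match and 2.98% an ISRE core match. A match of letters is a description and not evidence of binding.

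In TAMs of AMPK-KO mice, 7 of the 9 genes were higher than in WT TAMs and none was lower, by edgeR's quasi-likelihood test at an adjusted p below 0.05. Of all 17532 genes tested, 21.1% were called, 11.3% as higher and 9.78% as lower. Ifng, Socs1, Serpina3g and Irf1 also passed a log2 fold change of 1, which 2.05% of all genes did upward and 1.28% downward. The median log2 fold change of the 9 genes was 0.53, against -0.0037 over all genes tested. For 8 of the 9 genes the AMPK-KO and WT libraries did not overlap, with all 3 AMPK-KO libraries on the higher side, as was the case for 18.8% of all genes, and 37.2% of all genes did not overlap in either direction.

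**Figure D1:**
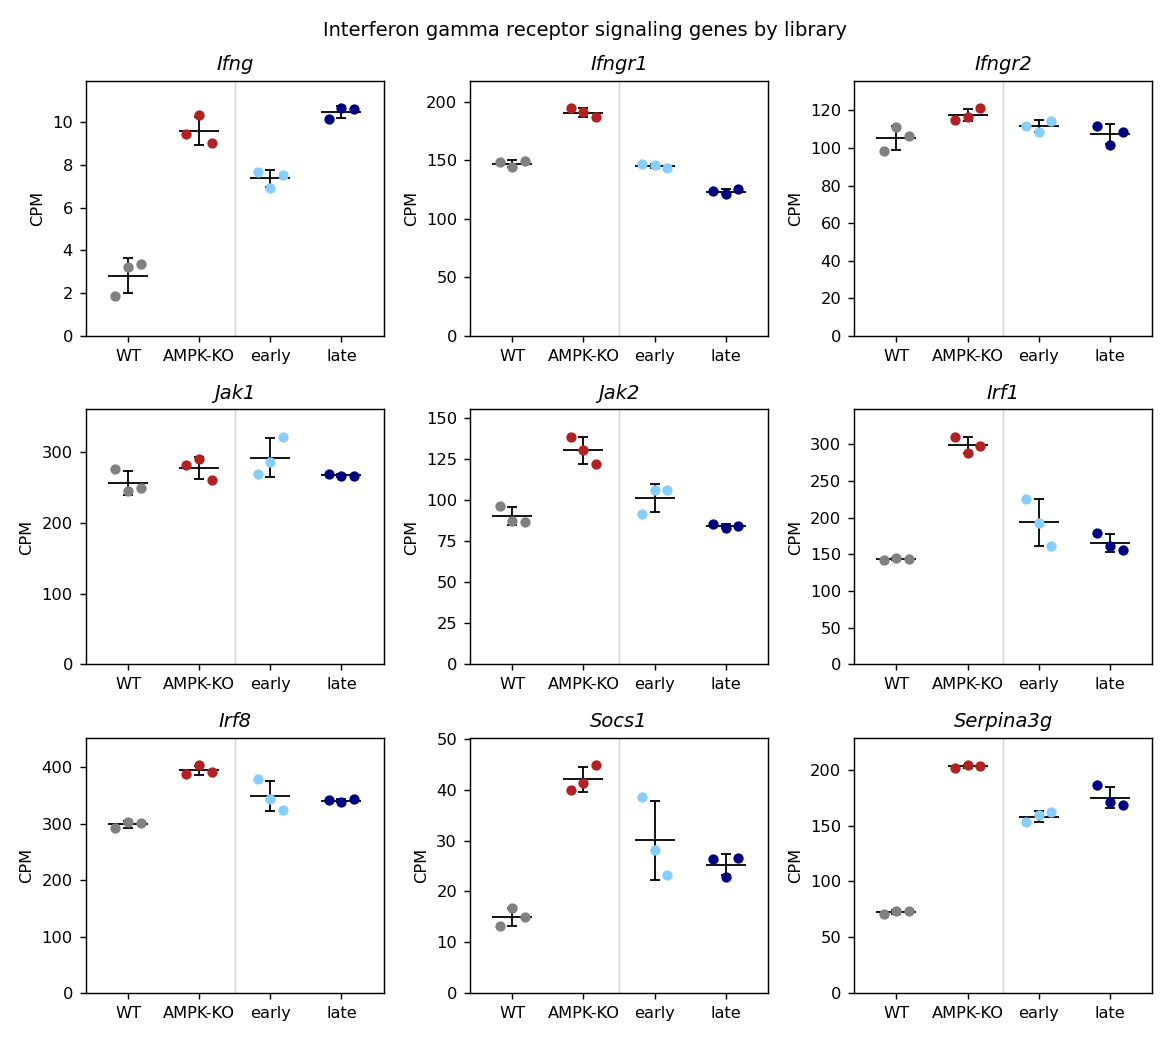
CPM of the 9 genes in each of the 12 libraries, with 1 panel per gene. Points are libraries in replicate order, the horizontal line is the group mean, the bar its SD (n = 3), and the grey line parts the tables, which were normalized separately. Irf1, Socs1 and Serpina3g stood clear of WT in every AMPK-KO library, whereas the early and late groups lay closer together for these genes. Of the 9 genes, only Ifng and Ifngr1 were called between early and late.

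The ligand was the member with the lowest level and the largest fold. Ifng (chr10:118441046-118445892, GRCm38) was at 1.89, 3.23 and 3.36 CPM in the WT libraries, from 136, 233 and 274 counts. It was at 9.42, 10.3 and 9.0 CPM in the AMPK-KO libraries, from 695, 828 and 727 counts. Every AMPK-KO library lay above every WT library, and WT replicate 1 was the lowest. The log2 fold change was 1.76 ± 0.20 (SE), a 3.39-fold difference with a 95% interval of 2.48 to 4.62 (adjusted p = 1.5e-04). A predicted gene on the same strand, Gm49751, overlaps Ifng and drew 16 to 120 counts per library, and 8.03% of the 100-base windows of the Ifng transcript also stand in it.

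Markers of the cells known to make Ifng moved with it. All 7 NK cell markers were called higher in AMPK-KO, and their summed level ranged from 38.7 to 43.9 CPM in WT and from 93.5 to 97.9 CPM in AMPK-KO. Of the 10 T cell markers 8 were called higher and none lower, and the sum ranged from 105 to 125 CPM in WT and from 197 to 204 CPM in AMPK-KO. None of these 17 markers was at 0 in all libraries of a group. In bulk samples, fewer cells of a type and less RNA per cell cannot be told apart. Relative to 100 CPM of the summed T and NK markers of the same library, a ratio chosen after the values were seen, Ifng was at 1.78 ± 0.413 (SD, n = 3) CPM in WT and at 3.24 ± 0.276 CPM in AMPK-KO. The libraries did not overlap on this ratio either, which was 1.82-fold higher in AMPK-KO (p = 0.1 by a two-sided exact permutation test, where 3 libraries against 3 cannot give less).

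Of the receptor chains, Ifngr1 passed the test and Ifngr2 did not. Ifngr1 (chr10:19591949-19610229), the chain that binds the ligand, was at 148, 144 and 149 CPM in WT and at 194, 191 and 187 CPM in AMPK-KO. The groups did not overlap, and the log2 fold change of 0.37 ± 0.05 (adjusted p = 2.4e-04) corresponds to 1.30-fold. Ifngr2 (chr16:91547072-91565623), the chain needed for signal transduction, was at 98.3, 111 and 107 CPM in WT and at 115, 117 and 121 CPM in AMPK-KO. These libraries did not overlap, but the difference did not pass the test, with a log2 fold change of 0.16, an interval of 0.03 to 0.29 and an adjusted p of 0.0854. For every 100 CPM of Ifngr1 there were 71.6 ± 5.50 CPM of Ifngr2 in WT and 61.6 ± 2.91 in AMPK-KO, without overlap (exact permutation p = 0.1).

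Of the receptor kinases, Jak2 passed the test and Jak1 did not. Jak1 (chr4:101152367-101265282) was at 276, 245 and 249 CPM in WT and at 282, 290 and 260 CPM in AMPK-KO. The groups overlapped, and the log2 fold change of 0.11 had an interval of -0.02 to 0.25 (adjusted p = 0.231). Raver2, which overlaps Jak1 on the other strand, drew 21 to 84 counts. Jak2 (chr19:29251828-29313080) was at 96.6, 87.6 and 86.5 CPM in WT and at 139, 131 and 122 CPM in AMPK-KO. It rose without overlap, by 0.53 ± 0.07 on the log2 scale or 1.45-fold (adjusted p = 2.4e-04). Jak2 per 100 CPM of Jak1 was 35.2 ± 0.546 in WT and 47.1 ± 2.07 in AMPK-KO, and no library of one group reached the range of the other (exact permutation p = 0.1).

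Irf1 (chr11:53770014-53778374), the transcription factor with a GAS match at -90 to -82 shown above, was at 142, 145 and 144 CPM in WT and at 310, 288 and 298 CPM in AMPK-KO. The WT libraries differed by only a few CPM, and every AMPK-KO library lay far above them. The log2 fold change was 1.06 ± 0.05 (adjusted p = 3.3e-07), a 2.08-fold difference with an interval of 1.93 to 2.24. Gm17334, an antisense gene overlapping Irf1, drew 411 to 1292 counts, and the sources used here do not state whether counting used the strand.

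Irf8 (chr8:120736358-120756694), a factor that directs the development of monocytes and of type 1 conventional dendritic cells, was at 292, 303 and 302 CPM in WT and at 388, 404 and 392.5 CPM in AMPK-KO. The groups were apart, with a log2 fold change of 0.40 ± 0.04 or 1.32-fold (adjusted p = 9.5e-05). The annotation holds a read-through gene over Irf8, Gm20388, which is not analysed here. Irf8 is also a gene of dendritic cells and B cells, and their markers moved in opposite directions. All 9 conventional dendritic cell markers were called higher in AMPK-KO, with sums of 275 to 310 CPM in WT and 366 to 394 CPM in AMPK-KO and no marker at 0. Of the 5 B cell markers 4 were called lower and 1 higher, with sums of 30.9 to 32.5 CPM in WT and 19.9 to 22.1 CPM in AMPK-KO. Per 100 CPM of the summed dendritic cell markers, Irf8 was at 104 ± 8.71 CPM in WT and 103 ± 4.36 CPM in AMPK-KO, with ranges that overlapped (exact permutation p = 0.9). The part of these cells in the Irf8 difference was not tested.

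Socs1 (chr16:10782240-10785536), the inhibitor of the receptor kinases, was at 13.1, 16.7 and 14.9 CPM in WT and at 40.02, 41.4 and 44.8 CPM in AMPK-KO. Every AMPK-KO library lay far above every WT library. The log2 fold change was 1.498 ± 0.10 (adjusted p = 3.1e-06), a 2.82-fold difference with an interval of 2.43 to 3.28. Socs1 per 100 CPM of Irf1, its fellow target, was 10.4 ± 1.16 in WT and 14.1 ± 1.09 in AMPK-KO, without overlap (exact permutation p = 0.1).

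Serpina3g, which encodes an inhibitor of lysosomal cathepsins, had the smallest adjusted p of the 9 genes. It was at 70.6, 73.1 and 73.6 CPM in WT and at 202, 204 and 204 CPM in AMPK-KO. Neither group spread by more than 3 CPM around its mean. The log2 fold change was 1.49 ± 0.05 (adjusted p = 4.2e-08), a 2.80-fold difference with an interval of 2.61 to 3.02. Reads of the Serpina3 copies can be split between genes: 4.64% of the 100-base windows of the Serpina3g transcript also stand in a transcript of another gene of the cluster. The neighbouring copy Serpina3f was at 14.7, 14.1 and 15.3 CPM in WT and at 36.5, 35.1 and 35.0 CPM in AMPK-KO, a log2 fold change of 1.27 (adjusted p = 1.6e-06). Counted as 1 feature, the copies differed by 1.45 on the log2 scale. Serpina3n, at 0.944 ± 0.193 CPM in WT and 2.03 ± 0.468 CPM in AMPK-KO, was called higher as well (log2 fold change 1.11, adjusted p = 0.0188), Serpina3i was not called (adjusted p = 0.412), and the other 7 genes of the clade did not pass the filter. The Serpina3f window also held a GAS match, TTCCTAGAA at -121 to -113, in its first listed promoter.
Serpina3f, promoter 1, chr12:104214294-104214543, plus strand: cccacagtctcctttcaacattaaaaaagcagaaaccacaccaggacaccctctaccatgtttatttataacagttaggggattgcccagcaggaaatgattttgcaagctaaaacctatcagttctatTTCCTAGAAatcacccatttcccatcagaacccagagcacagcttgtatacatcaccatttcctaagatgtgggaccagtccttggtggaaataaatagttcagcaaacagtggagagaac

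**Figure D2:**
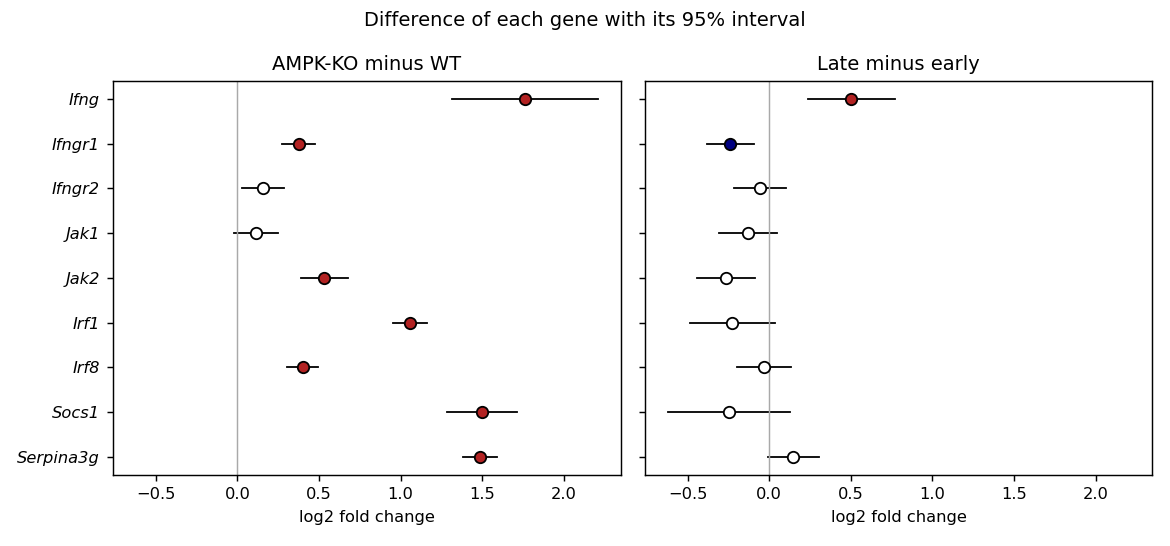
Log2 fold change of each gene (horizontal axis) in AMPK-KO against WT and in late against early. Lines are 95% intervals, red points were called higher, the blue point was called lower, and white points did not pass an adjusted p of 0.05. In AMPK-KO the estimates lie between 0.11 and 1.76, and in the stage comparison between -0.27 and 0.50.

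Beyond the 9 genes, 94 other genes of the pathway were examined in 8 lists by role. In AMPK-KO 68 of the 94 were called higher and 2 lower, against 11.3% and 9.78% of all genes, and their median log2 fold change was 0.68. Among the 7 STAT factors 4 were called higher and none lower. Stat2, which acts in type I interferon signaling, rose by 0.46 (adjusted p = 2.3e-04) and Stat3, the factor downstream of interleukin 6 and interleukin 10 receptors, by 0.37 (adjusted p = 3.2e-04). The other Janus kinases rose too, Jak3 by 0.45 (adjusted p = 1.6e-04) and Tyk2 by 0.40 (adjusted p = 0.0012).

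Of the 5 related cytokine receptors 2 rose and 1 fell. Il10ra, the ligand-binding chain of the interleukin 10 receptor, rose by 0.67 on the log2 scale (adjusted p = 6.3e-06), whereas its partner chain Il10rb fell by 0.24 (adjusted p = 0.0071). Ifnlr1, the interferon lambda receptor chain, was called higher at a level near the floor, 0.0615 ± 0.0564 CPM in WT and 0.701 ± 0.273 CPM in AMPK-KO (adjusted p = 0.0149). The feedback inhibitors of the SOCS family rose in 3 of 7 cases and fell in none, namely Cish by 1.01 (adjusted p = 1.6e-05), Socs3 by 0.42 (adjusted p = 4.5e-05) and Socs2 by 0.77 (adjusted p = 0.0022). Of the 8 phosphatases and PIAS proteins, which switch the pathway off, 3 rose and none fell. These were Ptpn6 by 0.40 (adjusted p = 1.1e-04), Ptpn1 by 0.28 (adjusted p = 0.0027) and Ptpn2 by 0.28 (adjusted p = 0.0171). Of the 7 other IRF genes 5 rose and none fell, led by Irf7 (0.38, adjusted p = 1.8e-04), Irf5 (0.36, adjusted p = 3.5e-04) and Irf2 (0.45, adjusted p = 5.6e-04).

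The 14 genes that induce Ifng comprise cytokines, their receptors and T-box factors, and 10 of them rose while 1 fell. The receptor chains led by adjusted p. Il12rb1, a chain of the interleukin 12 receptor, was at 17.2 ± 1.31 CPM in WT and 39.0 ± 0.298 CPM in AMPK-KO, a rise of 1.18 on the log2 scale (adjusted p = 3.3e-06). Il18r1 rose by 1.17 (adjusted p = 2.1e-05) and its partner Il18rap by 1.45 (adjusted p = 5.1e-05), both chains of the interleukin 18 receptor. The cytokine gene Il18 itself fell by 0.26 (adjusted p = 0.0433). The list had a median log2 fold change of 1.10 and the 7 NK cell markers, all called higher as given beside Ifng, one of 1.09. T and NK cells express several of these receptors and T-box factors, Eomes stands in both lists, and the part of those cells in the rise was not tested.

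The response genes were the largest list, with 39 of 44 called higher and none lower, 20 of them past a log2 fold change of 1. Their median log2 fold change was 0.99. H2-Aa, an MHC class II chain, was at 1223 ± 35.2 CPM in WT and 3197 ± 62.0 CPM in AMPK-KO (log2 fold change 1.39, adjusted p = 3.0e-08). Cd74, the invariant chain that accompanies MHC class II, rose from 3600 ± 136 to 8571 ± 233 CPM (1.25, adjusted p = 4.1e-08). Gbp2b, a guanylate-binding protein, rose from 24.9 ± 1.43 to 126 ± 5.89 CPM (2.34, adjusted p = 3.0e-08). The response genes not called were Ido1, Fcgr1, Gch1, Wars and Ifi30. Dendritic cells carry MHC class II in large amounts as well, and their markers were higher in AMPK-KO as given beside Irf8. Ly6c2, a gene of the Ly6C marker of the sort, was at 17.6 ± 0.163 CPM in WT and 40.2 ± 3.27 CPM in AMPK-KO (log2 fold change 1.19, adjusted p = 3.4e-06). Of the other genes of the sort markers, Ptprc and Itgam were called higher too, whereas Ly6c1 and Adgre1 were not called. Stat2, which acts in type I interferon signaling, was called higher as well, as given above. The part of dendritic cells, of the sort markers or of type I interferon in these differences was not tested. Of the 44 response genes 30 had a promoter in the RefSeq table, and of their 33 promoters 24.2% held a GAS match and 39.4% an ISRE core match.

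**Figure D3:**
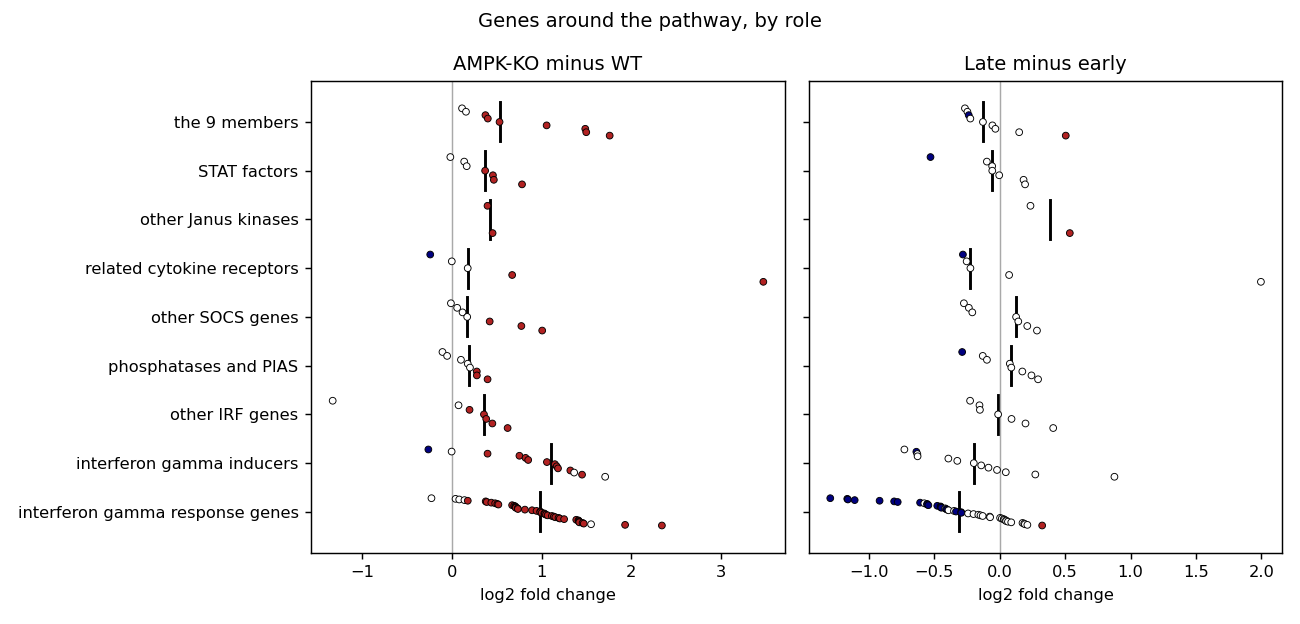
Log2 fold changes of the 9 genes and of the 8 lists of other pathway genes (rows) in AMPK-KO against WT and in late against early, on separate horizontal scales. Each point is a gene that passed the filter, red if called higher, blue if called lower and white if not called, and black bars are medians. The response genes have a median of 0.99 in AMPK-KO and of -0.32 in the late stage.

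The stage comparison gave a smaller and mixed picture, and sex cannot be told apart from stage in it. From day 8 to day 15 only Ifng was called higher and only Ifngr1 lower among the 9 genes, none past a log2 fold change of 1, while 9.18% of the 17630 genes tested were called, 4.31% as higher and 4.88% as lower, and 0.601% rose and 1.26% fell past that fold. The median log2 fold change of the 9 genes was -0.13, against 0.0027 over all genes tested. The groups did not overlap for 4 of the 9 genes, Ifng and Serpina3g on the higher side and Ifngr1 and Jak2 on the lower side, and 31.2% of all genes did not overlap in either direction. With late replicate 1, 2 or 3 or early replicate 2 left out, none of the 9 genes passed, and without early replicate 1 or 3 there were 3 calls, while the log2 fold changes stayed at 0.46 to 0.54 for Ifng and at -0.25 to -0.23 for Ifngr1 over all 6 of these fits.

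Ifng was at 7.67, 6.91 and 7.54 CPM in the early libraries and at 10.1, 10.6 and 10.6 CPM in the late libraries. The groups lay apart, with a log2 fold change of 0.50 ± 0.12 and an adjusted p of 0.0274, or 1.42-fold. Without late replicate 2 the adjusted p was 0.120, and without late replicate 1, late replicate 3 or early replicate 2 it was 0.0708, 0.111 and 0.116, with log2 fold changes of 0.49, 0.53, 0.49 and 0.46 in that order, close to the 0.50 of all libraries. The T cell markers summed to 181 to 189 CPM early and to 226 to 264 CPM late, with 4 of 10 called higher and none lower. The NK cell markers moved the other way, from 97.1 to 111 CPM early to 44.3 to 60.1 CPM late, with 5 of 7 called lower and none higher, and no T or NK marker was at 0 in all libraries of a group. Per 100 CPM of the T and NK markers together, Ifng was at 2.56 ± 0.0876 CPM early and 3.46 ± 0.250 CPM late, without overlap (exact permutation p = 0.1). Per 100 CPM of the T cell markers alone it was at 3.97 ± 0.140 and 4.21 ± 0.238 CPM, with ranges that overlapped (exact permutation p = 0.3).

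Ifngr1 was at 147, 146 and 143 CPM early and at 123, 121 and 125 CPM late. The late libraries were all lower, by 0.24 on the log2 scale (SE 0.06, adjusted p = 0.0474), close to the threshold, and without early replicate 2 or any late replicate the adjusted p was 0.145 to 0.212 at log2 fold changes of -0.25 to -0.23. Ifngr2 was at 112, 109 and 115 CPM early and 112, 102 and 108 CPM late. It overlapped between the groups and did not pass the test, with an interval of -0.21 to 0.10 on the log2 scale (adjusted p = 0.678). Ifngr2 per 100 CPM of Ifngr1 was 76.9 ± 2.79 early and 87.1 ± 3.36 late, without overlap (exact permutation p = 0.1).

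Jak1 was at 268, 286 and 321 CPM early and at 269, 266 and 265 CPM late. The early libraries spread widely and overlapped with the late ones, and the interval of the log2 fold change was -0.31 to 0.05 (adjusted p = 0.354). Jak2 was at 91.6, 106 and 106 CPM early and at 85.4, 83.0 and 84.4 CPM late. The late libraries were all lower, yet the log2 fold change of -0.27 ± 0.08 did not pass (adjusted p = 0.0682), and it did so without early replicate 1 (adjusted p = 0.0093).

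The target genes varied more among the early libraries than between the stages. Irf1 was at 226, 193 and 162 CPM early and at 180, 162 and 156 CPM late. Socs1 was at 38.6, 28.2 and 23.3 CPM early and at 26.4, 22.9 and 26.5 CPM late. Early replicate 1 was the highest and early replicate 3 the lowest of the early libraries for both genes, and the groups overlapped. The intervals of the log2 fold change were -0.49 to 0.03 for Irf1 (adjusted p = 0.271) and -0.62 to 0.13 for Socs1 (adjusted p = 0.409). Without early replicate 3 Irf1 was called lower, at -0.34 (adjusted p = 0.0397). The ratio of the targets to each other hardly moved, with Socs1 at 15.3 ± 1.52 CPM per 100 CPM of Irf1 early and 15.3 ± 1.53 late (exact permutation p = 0.9).

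Irf8 was at 379, 344 and 325 CPM early and at 342, 338 and 343 CPM late. The late libraries fell inside the early range, and the interval of the log2 fold change was -0.20 to 0.13 (adjusted p = 0.826). The conventional dendritic cell markers summed to 262 to 293 CPM early and 355 to 359 CPM late, and 3 of 9 were called higher and 1 lower. Irf8 per 100 CPM of these markers was 126 ± 17.4 CPM early and 95.5 ± 1.26 CPM late, without overlap (exact permutation p = 0.1). The B cell markers summed to 37.3 to 41.8 CPM early and 57.5 to 82.9 CPM late, with 3 of 5 called higher and none lower, and their part in the Irf8 values was not tested. Serpina3g was at 153, 159 and 162 CPM early and at 186, 171 and 169 CPM late. All late libraries were higher, but the log2 fold change of 0.15, with an interval of -0.01 to 0.31, did not pass (adjusted p = 0.236). Serpina3f was at 27.6, 26.2 and 30.4 CPM early and 27.98, 25.6 and 24.2 CPM late, and Serpina3f per 100 CPM of Serpina3g was 17.7 ± 1.16 early and 14.8 ± 0.391 late, without overlap (exact permutation p = 0.1).

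**Figure D4:**
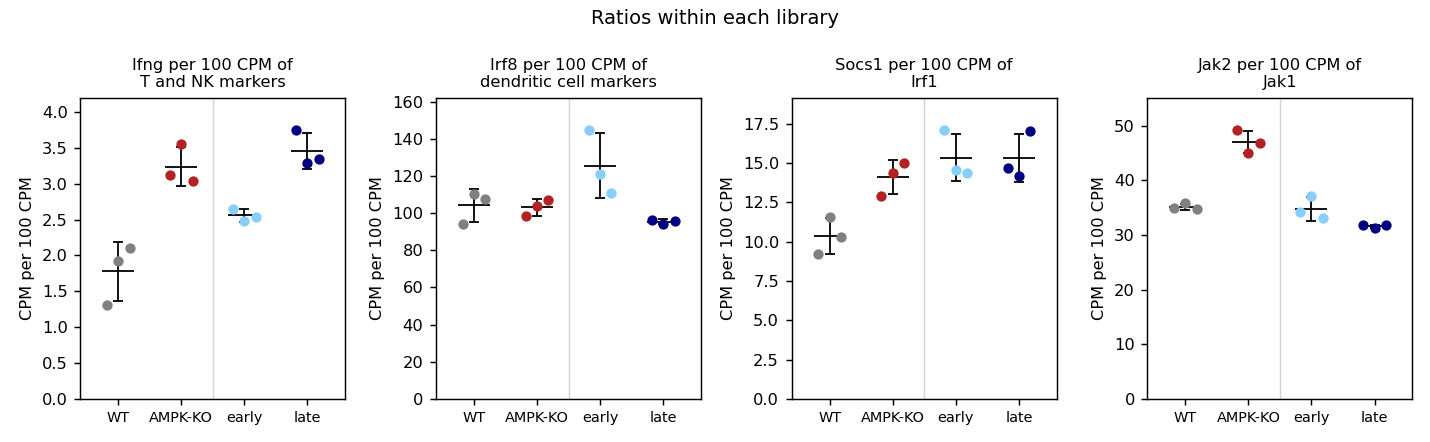
Ratios formed within each library (vertical axes, CPM of the first gene per 100 CPM of the second gene or of summed markers). Points are libraries, horizontal lines are means, and bars are SD (n = 3). Jak2 per 100 CPM of Jak1 is 35.2 in WT and 47.1 in AMPK-KO, while Irf8 per 100 CPM of dendritic cell markers is 104 in WT, 103 in AMPK-KO, 126 early and 95.5 late.

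Of the other pathway genes 93 of 94 passed the filter in the stage comparison, and 2 were called higher and 24 lower, against 4.31% and 4.88% of all genes. Jak3, the kinase of the common gamma chain receptors, was higher by 0.53 (adjusted p = 0.0099). Stat4, the factor downstream of interleukin 12, fell by 0.53 (adjusted p = 0.0405), Il18rap by 0.64 (adjusted p = 0.0318), Il10rb by 0.28 (adjusted p = 0.0319) and Ptpn2 by 0.29 (adjusted p = 0.0486). Each was the only gene of its list to be called. None of the 7 other SOCS genes was called by edgeR, with 2 at an unadjusted p below 0.05 and 1 called by DESeq2. None of the 7 other IRF genes was called by edgeR or DESeq2, with 2 at an unadjusted p below 0.05.

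The response genes accounted for most of the calls, with 20 of 44 lower and 1 higher in the late stage and a median log2 fold change of -0.32. Acod1, which makes itaconate, was at 113 ± 4.62 CPM early and 46.1 ± 1.95 CPM late, a log2 fold change of -1.30 (adjusted p = 1.3e-05). Nos2, the inducible nitric oxide synthase, was at 147 ± 12.9 CPM early and 65.8 ± 1.58 CPM late (-1.16, adjusted p = 4.2e-05). Tgtp1, an interferon-inducible GTPase, fell by 0.81 (adjusted p = 2.7e-04). The chemokine gene Cxcl9 was the 1 that rose, by 0.32 (adjusted p = 0.0320). Ly6c2 moved with the genes that fell, at 30.1 ± 1.51 CPM early and 8.39 ± 1.38 CPM late (-1.84, adjusted p = 4.8e-05). Ly6c1 was called lower too, and Ptprc, Itgam and Adgre1 were not called. The part of these sort markers or of type I interferon in the falls was not tested. Without late replicate 2, late replicate 3 or early replicate 2 the number of pathway genes called was 12, 15 and 13 in place of 26, and without late replicate 1 it was 18.

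Levels of different genes were compared per kilobase of exon, as CPM divided by the union exon length in GENCODE M21. For Serpina3g that length, 2105 bases, comes from another version of the gene than the one counted, so its place in each order is less certain. In AMPK-KO the order was Serpina3g at 96.5 CPM per kilobase, Irf1 at 75.1, Ifngr1 at 67.0, Irf8 at 56.0, Jak1 at 38.4, Ifngr2 at 31.2, Jak2 at 25.9, Socs1 at 14.5 and Ifng at 7.40. No neighbours in this order overlapped across their 3 libraries. In WT the receptor chain Ifngr1 led at 51.7 CPM per kilobase, followed by Irf8 at 42.4, Irf1 at 36.1, Jak1 at 35.5, Serpina3g at 34.4, Ifngr2 at 27.96, Jak2 at 17.9, Socs1 at 5.12 and Ifng at 2.18. Irf1 with Jak1 and Jak1 with Serpina3g overlapped across the libraries there. Serpina3g thus stood in the fifth place in WT and in the first place in AMPK-KO. It was first as well in the early libraries, at 75.1 CPM per kilobase, and in the late libraries, at 83.2. In the early libraries Ifngr1 (51.0), Irf8 (49.5), Irf1 (48.7) and Jak1 (40.4) overlapped with their neighbours, ahead of Ifngr2 (29.6), Jak2 (20.2), Socs1 (10.3) and Ifng (5.69). In the late libraries the order was Irf8 (48.3), Ifngr1 (43.3), Irf1 (41.7), Jak1 (36.9), Ifngr2 (28.5), Jak2 (16.8), Socs1 (8.69) and Ifng (8.07), and Ifngr1 with Irf1 and Socs1 with Ifng overlapped.

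Within the groups, the genes did not vary together as 1 set. Over the 12 libraries, with the deviation of log2 CPM from the group mean, Socs1 went with Irf8 (Pearson r = 0.92) and with Irf1 (0.78), and Jak1 with Jak2 (0.81), while Socs1 went against Jak1 (-0.85). These libraries share depth and composition within a table. Relative to the group mean, the early libraries spread most for Irf1, Irf8, Socs1, Jak1 and Jak2. The correlations of these genes, and the genes most like them, therefore weigh the early libraries most. From early replicate 1 to early replicate 3, Socs1 fell from 38.6 to 23.3 CPM and Irf8 from 379 to 325 CPM. Jak1 rose from 268 to 321 CPM between the same libraries. No correlation was computed without the early libraries. Ifng spread most in WT (SD 0.814 on a mean of 2.83 CPM) and Serpina3g in late (SD 9.63 on a mean of 175 CPM). The genes whose deviations were most like those of Socs1 among 12867 genes were Cdc42se1 (0.99), Vill (0.98) and Coro1b (0.98). For Irf1 they were Cyth4 (0.98), Polg (0.98) and Pim1 (0.98), and for Irf8 Metrnl (0.99), Atp6v0c-ps2 (0.98) and Urm1 (0.98). Ifng was most like Gng10 (0.96), Got2-ps1 (0.92) and the response gene Cxcl11 (0.92), and Serpina3g most like Tiam2 (0.95), Rgs18 (0.93) and Gm36486 (0.92).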

How the data were processed

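Bulk RNA of sorted TAMs was sequenced by the authors in 12 libraries, 4 groups of 3, and the deposited values are raw read counts per gene in 2 tables, WT with AMPK-KO and early with late. The submitters' processing notes name FastQC, HISAT2 and featureCounts, DESeq2, and the builds mm10 and GRCm38, while versions and the strand setting are not given in the sources used here. Each table lists 55401 genes, of which 54349 IDs match GENCODE M21 with their version. Serpina3g has another version there, so its coordinates are those of its RefSeq promoter. Library totals were 71019494 to 84470374 counts, so a gene at 1 CPM rests on more than 70 counts.

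Each table was fitted on its own with edgeR 4.0.16 (filterByExpr, TMM factors, quasi-likelihood F test, R 4.3.3) without covariates, and p-values were adjusted by Benjamini-Hochberg over all genes tested. CPM used TMM library sizes. Levels and ratios are mean ± SD with n = 3, whereas ± after a log2 fold change is its SE. Intervals of fold changes use the t quantile of the fit. Ratios were tested with exact two-sided permutation tests, which cannot go below 0.1 with 3 against 3. Nothing states that replicates of a group came from separate mice, so p-values measure only the spread between these samples. Same-numbered samples correlated at -0.0039 to 0.0423 in their deviations and differently numbered ones at -0.0611 to 0.0472. No pairing by number was detected, which does not show that the samples were unpaired.

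The 9 genes, the 8 pathway lists and the 9 marker lists were chosen with earlier results of these data known. Named genes were the 9 members, the label checks, the Serpina3 clade and the 3 called genes of lowest adjusted p in each pathway list. The most abundant macrophage marker and the 3 genes most alike (Pearson r over genes of mean CPM at least 1) were named too. Ly6c2, the other sort markers and the ratios were added after the values were seen. The marker lists not quoted above were plasmacytoid dendritic cell (1 higher and 1 lower of 5 in AMPK-KO), neutrophil (3 higher of 6 in AMPK-KO, 2 lower in late), melanoma cell (6 lower of 6 in AMPK-KO, 4 lower in late) and fibroblast or endothelial cell (6 higher and 1 lower of 7 in AMPK-KO, 3 lower in late). The melanoma markers summed to 919 to 926 CPM in WT, 615 to 645 in AMPK-KO, 1546 to 1667 early and 701 to 1133 late. The fibroblast or endothelial markers summed to 485 to 532 CPM in WT, 684 to 744 in AMPK-KO, 696 to 764 early and 373 to 496 late. The part of such cells in the values of the 9 genes was not tested. Alternatives were DESeq2 1.42.0, other scaling factors, other filters, a replicate block, leaving out each library, and Serpina3g with Serpina3f as 1 feature. The test was checked on simulated counts. One gene that the rule names is not reported here.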

Additional observations from a re-analysis of the deposited data

How the results depend on the processing

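The count of the 9 genes called in AMPK-KO was 7 under every alternative, leave-one-out included (7 to 7), except the rule of an unadjusted DESeq2 p with a log2 fold change over 1, which left 4, as Ifngr1 (0.38), Jak2 (0.53) and Irf8 (0.40) miss that fold. The count of other pathway genes was 70, with 65 to 71 on leaving out 1 library and 30 under that rule. In the stage comparison the 9 genes gave 2 calls, 1 without the filter beyond 1 count, 3 with DESeq2 at an adjusted p, 0 under the fold rule and 0 to 3 on leaving out 1 library. The pathway genes gave 26 calls there, 5 under the fold rule, 18 without the filter, 35 with DESeq2, and 12 to 38 on leaving out 1 library, 38 without early replicate 1. Irf8 in the late stage turned from -0.034 to 0.031 without early replicate 1, and was -0.085 without early replicate 3. The median of all genes moved by less than 0.03 under any setting. No pairing by replicate number was seen. A fit with the replicate number as a block called 7 of the 9 genes in AMPK-KO and 0 in the late stage. It called 71 and 22 of the pathway genes. With 3 libraries per group every SD is imprecise, and Ifng in WT rests on 136 to 274 counts.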

Other observations

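Day 15 tumors of mice labelled as wild type stand in both tables, as WT (AMPKfl/fl) and as late-stage libraries. The tables share no library and were normalized separately, so their levels are given side by side without a test. Ifng was at 1.89 to 3.36 CPM in WT and at 10.1 to 10.6 CPM in the late libraries, a ratio of the means of 3.70, against 3.39 between AMPK-KO and WT. Serpina3g was at 70.6 to 73.6 CPM in WT and at 169 to 186 CPM in the late libraries, a ratio of 2.42, against 2.80 between AMPK-KO and WT. Socs1 had a ratio of 1.70 against 2.82. Irf1, in contrast, had a ratio of 1.15 against 2.08, Jak2 0.934 against 1.45 and Ifngr1 0.838 against 1.30. Ifngr1 in the late libraries, at 121 to 125 CPM, lay below the WT range of 144 to 149 CPM. The T cell markers summed to 105 to 125 CPM in WT, 197 to 204 in AMPK-KO and 226 to 264 in late. The NK cell markers had another order, at 38.7 to 43.9 CPM in WT, 44.3 to 60.1 in late and 93.5 to 97.9 in AMPK-KO. The Y-linked genes summed to 9229 to 11360 counts in WT and to 0 to 4 in the late libraries. The part of these cells or of the sex of the mice in the ratios was not tested.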
